A study of Mus musculus with 4 samples.

Results

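The glycolysis and hypoxia response genes are a set of 36 mouse genes, made of glycolytic enzymes and of other genes that low oxygen is known to induce. They were chosen by name, with earlier results of these data known. A gene entered when the platform annotation gave it as the single symbol of a probe set, and its value was the mean of all such probe sets. By this rule 33 of the 36 were measured, among 18193 genes in all, with 12 glycolytic enzymes and 21 other hypoxia genes, through 73 probe sets. Gpi1, Eno1 and Bnip3l were left out. The arrays measured colonies that mammary epithelial cells formed in growth factor reduced Matrigel, a basement membrane gel, with Wnt3A, a secreted protein that activates canonical Wnt signalling, or with its vehicle. The Wnt3A group (arrays Wnt3A 1 and Wnt3A 2) received 200 ng/ml of purified Wnt3A throughout culture, and the control group (arrays control 1 and control 2) the CHAPS and PBS vehicle. Both groups were grown with 50 ng/ml EGF and insulin, transferrin and selenium supplement, from cells of virgin CD1 females 8 to 12 weeks old that had been sorted as lineage-negative, CD24-positive and CD29-high, and passage 2 colonies were harvested for RNA after 6 to 7 days. The sort enriches for mammary stem cells and does not isolate a single cell type, and the sources used here give neither the oxygen level nor whether replicate arrays stand for different animals or cultures, so p-values measure only the spread between these arrays.

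Glycolysis splits glucose into pyruvate in the cytosol and yields ATP without oxygen. When oxygen is scarce, the prolyl hydroxylases encoded by the Egln genes no longer mark the HIF alpha subunits for destruction by the Vhl ubiquitin ligase, and HIF then binds a short core sequence, ACGTG or GCGTG, near genes for glucose uptake, glycolysis, lactate export, pH control, mitochondrial turnover and blood vessel growth. Mammary epithelium raises glucose uptake and glycolysis in lactation, and cells inside three-dimensional colonies can be exposed to less oxygen than those at the rim. The deposited numbers are log2 units above or below a probe set's own median of the 4 arrays, so they compare arrays within a gene and carry no level between genes.

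Promoter windows were looked up to see how common the HIF core letters are among these genes. RefSeq windows (GRCm38.p6, 250 bases before to 50 bases after a transcription start) were found for 31 of the 33 genes. The letters ACGTG stood on either strand in at least 1 window of 22 of these 31 genes (71%), against 21.8% of the 27025 genes with a window. Over windows the share was 56.8% of 44 for the set and 19.6% of 32851 for all genes, and for GCGTG it was 47.7% and 32.4%. The E-box CACGTG, which Myc, Max and Mxi1 proteins can bind, holds ACGTG on both strands, and stood in 9.09% of the set's windows and 7.15% of all windows. Among the 11 genes with a window whose 2 Wnt3A arrays both lay below both control arrays, 6 had ACGTG, as did 4 of 6 genes with both Wnt3A arrays above and 12 of 14 genes whose groups overlapped. A match describes letters and is not a shown binding site. The windows below belong to the 4 genes with a window that had the largest differences among those with non-overlapping groups, and to Ldha, added after its values were seen because it had the most ACGTG matches and a difference near 0. They are written 5′ to 3′ along the gene, with matches to ACGTG and to GCGTG on either strand in capitals, and lie at chr12:54203825-54204124, minus strand (Egln3), chr7:138909457-138909756, minus strand (Bnip3), chr7:110627407-110627706, plus strand (Adm), chr11:78322823-78323122, plus strand (Aldoc, the first of 2 listed starts) and chr7:46845554-46845853, plus strand (Ldha, the first of 2 listed starts).
Egln3: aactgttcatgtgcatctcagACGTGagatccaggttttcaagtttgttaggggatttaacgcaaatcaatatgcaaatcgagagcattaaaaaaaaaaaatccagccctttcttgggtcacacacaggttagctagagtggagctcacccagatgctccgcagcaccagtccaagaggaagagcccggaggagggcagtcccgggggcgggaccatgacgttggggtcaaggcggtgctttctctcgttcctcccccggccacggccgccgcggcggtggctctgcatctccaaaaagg
Bnip3: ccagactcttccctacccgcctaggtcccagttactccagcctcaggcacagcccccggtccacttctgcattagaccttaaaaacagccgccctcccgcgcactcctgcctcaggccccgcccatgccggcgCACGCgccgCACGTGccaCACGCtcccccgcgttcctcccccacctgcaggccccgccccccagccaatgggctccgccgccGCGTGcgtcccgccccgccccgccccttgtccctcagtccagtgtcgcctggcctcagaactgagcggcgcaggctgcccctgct
Adm: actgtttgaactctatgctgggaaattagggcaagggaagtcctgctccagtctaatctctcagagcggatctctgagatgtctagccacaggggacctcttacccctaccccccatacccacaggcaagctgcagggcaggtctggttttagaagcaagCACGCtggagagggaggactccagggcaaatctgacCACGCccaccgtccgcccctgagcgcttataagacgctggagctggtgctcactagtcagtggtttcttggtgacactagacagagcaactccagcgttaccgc
Aldoc: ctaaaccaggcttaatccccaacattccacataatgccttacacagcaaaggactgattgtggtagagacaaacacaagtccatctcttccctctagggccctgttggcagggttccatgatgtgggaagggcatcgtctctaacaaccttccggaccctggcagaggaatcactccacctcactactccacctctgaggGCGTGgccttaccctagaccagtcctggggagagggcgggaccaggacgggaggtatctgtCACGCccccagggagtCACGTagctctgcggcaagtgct
Ldha: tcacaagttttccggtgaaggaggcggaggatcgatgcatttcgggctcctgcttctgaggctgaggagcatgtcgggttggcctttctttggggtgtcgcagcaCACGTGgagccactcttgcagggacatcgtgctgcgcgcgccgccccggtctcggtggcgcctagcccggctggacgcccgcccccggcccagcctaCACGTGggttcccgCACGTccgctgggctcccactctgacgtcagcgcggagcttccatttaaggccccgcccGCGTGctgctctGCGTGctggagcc
Egln3 held 1 ACGTG match, at position -229 from its start, and no GCGTG. Bnip3 held 2 ACGTG matches, both from 1 CACGTG, and 3 GCGTG matches. Adm held 2 GCGTG matches and no ACGTG, Aldoc 1 ACGTG and 2 GCGTG, and Ldha 5 ACGTG, of which 4 came from 2 CACGTG, and 2 GCGTG.

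Over the whole series, 0 of 18193 genes (0%) passed an adjusted p of 0.05 in limma, where the smallest was 0.266, while 1340 fell under 0.05 before adjustment and chance alone would give 910. The median gene differed by 0 log2 units and the median absolute difference was 0.117. Of the 3 Wnt response genes looked up, Axin2, a feedback inhibitor and target of canonical Wnt signalling, was at 0.60 and 0.19 in the Wnt3A arrays, against -0.27 and -0.59 in the control arrays. Notum was at 0.37 and 1.03 in the Wnt3A arrays, against -0.37 and -0.65 in the control arrays. Nkd1 differed by -0.05, and its groups overlapped. A coarse level, which can come out too high, was read from the precision of the stored numbers, and a gene took the highest band of any of its probe sets. This put all 8 basal markers looked up in the upper band (log2 of 8 or more) and 7 of 10 luminal markers there too. Of 6 blood cell markers, 2 (Cd68 and Cd79a) were in the upper band, 3 in the middle band and 1 (Ptprc, the pan-leukocyte gene) in the lowest, and the blood list had a median difference of 0.02. Squamous markers were higher on average with Wnt3A in 5 of 5 genes, with list medians of 0.57 and 2.06 in the Wnt3A arrays, against -0.57 and -1 in the control arrays. Basal markers had list medians of -0.18 and 0.22 in the Wnt3A arrays, against -0.51 in control 1 and 0.11 in control 2. Luminal markers were lower on average with Wnt3A in 8 of 10 genes, 4 of them without overlap, against 17.5% of all genes. Their list medians were 0 and -0.22 in the Wnt3A arrays, against 0.09 in each control array. The luminal transcription factor gene Foxa1 was at -1.85 and -0.68 in the Wnt3A arrays, against 0.68 and 1.47 in the control arrays (-2.34 ± 0.48, limma adjusted p = 0.477). Krt19, Kit and Pgr differed by -1.71, -0.74 and -0.60, also without overlap. The luminal keratin genes Krt8 and Krt18 went the other way, at 0.23 and 0.17, with overlapping groups. Epcam, Gata3, Elf5 and Esr1 differed by -0.15, -0.16, -0.09 and -0.42, and their groups overlapped. Of the basal markers, the contractile genes Cnn1 and Myh11 were at -2.75 and -1.67 in control 1, their lowest array. Control 1 was also lowest for Krt14, Itgb1 and Acta2, but not for Krt5, Trp63 and Itga6. The luminal genes Krt8 and Krt18 were lowest in control 1 as well, at -0.51 and -0.41. In bulk RNA, fewer cells of a type and less RNA per cell cannot be told apart, and the part of these marker differences in the results below was not tested.

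The comparison asked how Wnt3A colonies differ from vehicle colonies in glycolysis and hypoxia genes. Genes of the set differed in both directions. Bnip3, Ndrg1, Egln3, Aldoc, Pdk1, Higd1a and Eno2 were 1.45 to 3.41-fold lower with Wnt3A. Each had an unadjusted p under 0.05 in limma and both Wnt3A arrays below both controls. Adm was 2.76-fold higher, with smaller positive differences for Hk2 and Pfkfb4 that also had an unadjusted p under 0.05. The glycolytic genes Pfkl, Pfkp, Aldoa, Pgk1, Pgam1, Pkm and Ldha, and the hypoxia genes Vegfa, Slc2a1 and Slc2a3, had differences between -0.28 and 0.20 log2 units. No gene of the set passed the adjusted threshold in limma, where the smallest adjusted p was 0.302. Of the 33 genes, 12 (36.4%) had both Wnt3A arrays below both controls and 6 (18.2%) had both above, where over all genes 17.5% lay below and 17% above. An unadjusted p under 0.05 was found for 7 genes with lower values (21.2%) and 3 with higher ones (9.09%), against 3.82% and 3.55% of all genes. The share of separated higher genes was thus near that of all genes, and the other shares were above theirs. Because the genes were chosen with earlier results of these data known, these shares describe the set and are not a test. The median difference was -0.16 log2 units over the set, against 0 over all genes.

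**Figure D1:**
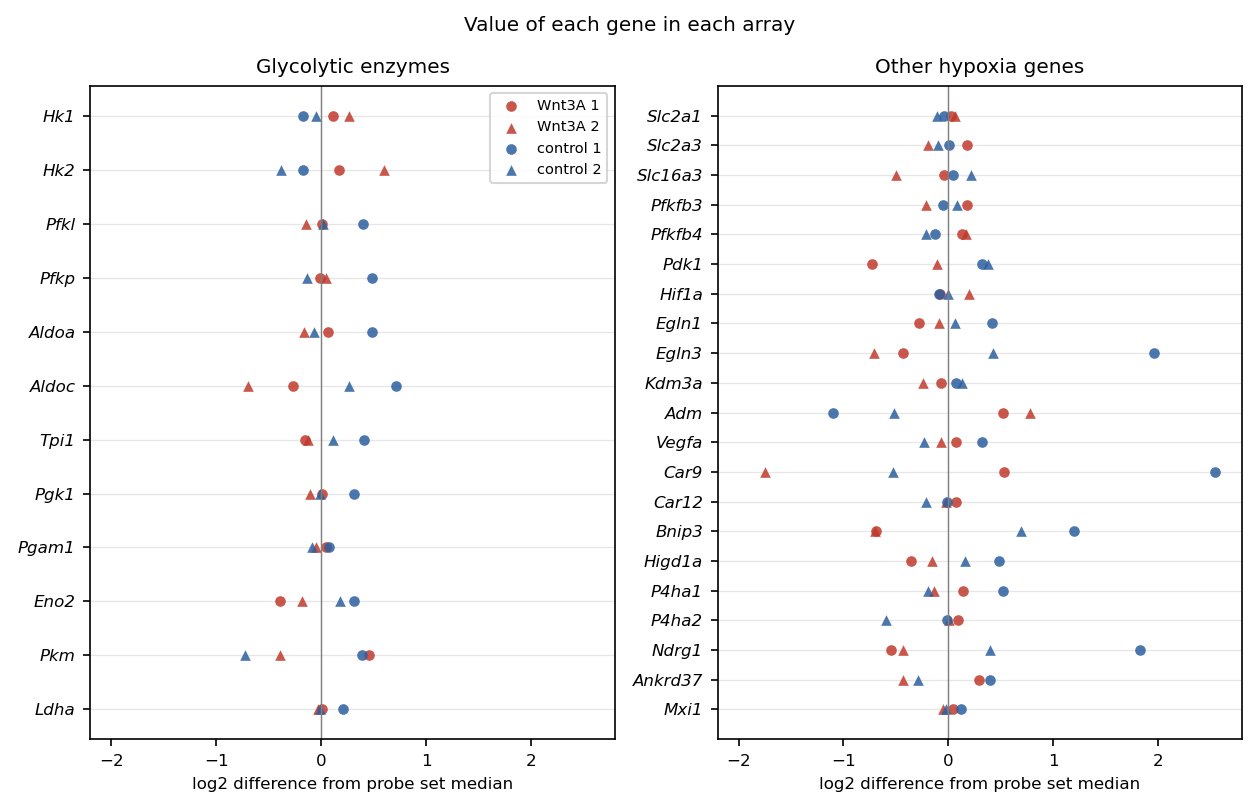
Value of each of the 33 genes in each array, as the log2 difference from the probe set median, with red for Wnt3A, blue for control, circles for array 1 and triangles for array 2 of a group. Control 1 is the rightmost point for 9 of the 12 glycolytic enzymes and for 10 of the 21 other hypoxia genes.

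Among the enzymes that prime and cleave glucose, Hk2 and Hk1 were higher on average with Wnt3A and the other 5 genes were lower on average. Hexokinase 2, Hk2, which traps glucose as its phosphate and is the inducible isoform, was at 0.17 and 0.60 in the Wnt3A arrays, against -0.17 and -0.38 in the control arrays. Its difference was 0.66 ± 0.20 log2 units (SE, n = 2 arrays a group; limma adjusted p = 0.606). Both Wnt3A arrays thus lay above both controls. Hk1, the widely expressed isoform, was at 0.11 and 0.27 with Wnt3A, against -0.17 and -0.05 in controls, a smaller separation in the same direction (0.30 ± 0.13, adjusted p = 0.741). Aldoc, an aldolase isoform best known from brain, had the largest difference of any enzyme here. It was at -0.27 and -0.70 with Wnt3A, against 0.71 and 0.27 in controls, a difference of -0.97 ± 0.23 log2 units or 1.96-fold (adjusted p = 0.545), and only 1.86% of all genes had a larger absolute difference. Aldoa, the main aldolase isoform of most tissues, was at 0.07 and -0.16 with Wnt3A, against 0.49 and -0.07 in controls. Its groups overlapped, and its difference of -0.25 was 0.03 without control 1. Tpi1, which interconverts the triose phosphates, was at -0.15 and -0.12 with Wnt3A, against 0.41 and 0.11 in controls (-0.39 ± 0.15, adjusted p = 0.677), without overlap. The phosphofructokinase genes Pfkl and Pfkp, which encode subunits of the committing enzyme, differed by -0.28 and -0.16, both with their highest value in control 1. Pfkl was at 0.01 and -0.14 with Wnt3A, against 0.40 and 0.02 in controls, without overlap but by a narrow margin. Pfkp had overlapping groups and was 0.14 higher with Wnt3A when control 1 was left out.

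The enzymes that turn triose phosphates into lactate differed less. Eno2, the enolase isoform known from neurons, was at -0.39 and -0.18 in the Wnt3A arrays, against 0.31 and 0.18 in the control arrays, a difference of -0.53 ± 0.14 log2 units (adjusted p = 0.556). It was the only one of these 5 genes whose groups did not overlap. Phosphoglycerate kinase, Pgk1, was at 0.01 and -0.11 with Wnt3A, against 0.31 and -0.01 in controls (-0.20 ± 0.16). Lactate dehydrogenase A, Ldha, was at 0.01 and -0.03 with Wnt3A, against 0.21 and -0.01 in controls (-0.11 ± 0.13), so that control 1 alone stood above the other arrays. Pgam1, which encodes phosphoglycerate mutase, differed by 0 ± 0.13, with a 95% interval of -0.34 to 0.34. Pyruvate kinase, Pkm, varied by array number rather than by group: it was at 0.46 in Wnt3A 1 and -0.39 in Wnt3A 2, against 0.39 in control 1 and -0.73 in control 2.

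Transporters and regulators of flux were mixed. Slc2a1, the basal glucose transporter of most cells, was at 0.03 and 0.06 with Wnt3A, against -0.04 and -0.11 in controls, a difference of 0.12 ± 0.11 whose 95% interval ran from -0.19 to 0.42. Slc2a3, a high-affinity glucose transporter, differed by 0.04 ± 0.17 with overlapping groups. Slc16a3, which exports lactate, was at -0.04 and -0.50 with Wnt3A, against 0.04 and 0.22 in controls (-0.39 ± 0.20, adjusted p = 0.786), and was separated mainly through Wnt3A 2. Pdk1, the kinase that shuts pyruvate dehydrogenase off and so keeps pyruvate out of mitochondria, was at -0.73 and -0.11 with Wnt3A, against 0.32 and 0.38 in controls. Its difference was -0.77 ± 0.24 log2 units, or 1.71-fold (adjusted p = 0.609), and the deepest value was that of Wnt3A 1. Pfkfb4 and Pfkfb3 encode enzymes that set the level of fructose 2,6-bisphosphate, the activator of phosphofructokinase. Pfkfb4 was at 0.13 and 0.17 with Wnt3A, against -0.13 and -0.21 in controls (0.33 ± 0.12, adjusted p = 0.649), a small and even separation, while Pfkfb3 differed by -0.03 ± 0.18.

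Among genes of the HIF pathway itself, Egln1, Egln3 and Kdm3a were lower on average with Wnt3A and Hif1a was not separated. Hif1a, whose protein is controlled mainly through its stability, was at -0.08 and 0.20 in the Wnt3A arrays, against -0.09 and 0 in the control arrays (0.10 ± 0.15). Egln3, a HIF prolyl hydroxylase gene that is itself a HIF target, had the largest absolute difference of the set. It was at -0.43 and -0.71 with Wnt3A, against 1.96 and 0.43 in controls, a difference of -1.77 ± 0.53 log2 units or 3.41-fold (adjusted p = 0.607). Control 1 stood well above control 2, and the difference was -1 without control 1 and -2.53 without control 2. Egln1, the main HIF prolyl hydroxylase in most cells, was at -0.28 and -0.09 with Wnt3A, against 0.42 and 0.06 in controls (-0.42 ± 0.18, adjusted p = 0.717). Kdm3a, a histone H3 lysine demethylase gene induced by HIF, was at -0.07 and -0.24 with Wnt3A, against 0.07 and 0.13 in controls (-0.25 ± 0.13). For Egln3, Egln1 and Kdm3a the groups did not overlap. Egln2, a further Egln gene outside the set, differed by 0.04 ± 0.17 with overlapping groups and was named after its values were seen.

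The secreted signals and the carbonic anhydrases did not share a direction. Adm encodes adrenomedullin, a peptide that widens vessels and is a widely used hypoxia marker. It was at 0.52 and 0.78 in the Wnt3A arrays, against -1.10 and -0.52 in the control arrays, a difference of 1.46 ± 0.24 log2 units or 2.76-fold (adjusted p = 0.421). Of the other genes with an absolute difference of at least 0.5, only Hk2 shared this direction. With an array left out it lay between 1.17 and 1.76. Vegfa, the main growth factor for blood vessels, was at 0.07 and -0.07 with Wnt3A, against 0.32 and -0.23 in controls, so that both Wnt3A arrays lay between the controls. Car9, a cell surface carbonic anhydrase gene tightly linked to HIF, had the widest spread of the set, at 0.53 in Wnt3A 1 and -1.75 in Wnt3A 2, against 2.54 in control 1 and -0.53 in control 2. Its difference of -1.62 ± 1.27 log2 units (adjusted p = 0.927) came with overlapping groups and was -0.09 without control 1 and -3.16 without control 2. Car12, a related enzyme of secretory epithelia, differed by 0.14 ± 0.13.

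Bnip3, Higd1a and Ndrg1, genes of mitochondria and stress, had both Wnt3A arrays below both controls. Bnip3, which encodes an outer mitochondrial membrane protein that marks mitochondria for removal, was at -0.69 and -0.70 in the Wnt3A arrays, against 1.20 and 0.69 in the control arrays. Its difference of -1.64 ± 0.20 log2 units, or 3.12-fold, had the smallest p of the set (adjusted p = 0.302), and it lay between -1.90 and -1.39 with an array left out. Higd1a, whose product sits in the inner mitochondrial membrane and acts on the respiratory chain, was at -0.36 and -0.16 with Wnt3A, against 0.48 and 0.16 in controls (-0.58 ± 0.17, adjusted p = 0.594), also without overlap. Ndrg1, a stress-responsive gene linked to differentiation, was at -0.55 and -0.43 with Wnt3A, against 1.83 and 0.40 in controls, a difference of -1.61 ± 0.49 or 3.05-fold (adjusted p = 0.609). As with Egln3, control 1 stood far above control 2, and the difference was -0.89 without control 1 and -2.32 without control 2. Of the genes for the collagen prolyl 4-hydroxylase alpha subunits, P4ha2 was at 0.09 and 0.01 with Wnt3A, against -0.01 and -0.59 in controls (0.35 ± 0.22), and P4ha1 at 0.14 and -0.14 with Wnt3A, against 0.52 and -0.19 in controls (-0.17 ± 0.28). The P4ha2 difference was set by control 2 and was 0.06 without it. Ankrd37, a compact HIF target, and Mxi1, which antagonises Myc, differed by -0.12 ± 0.35 and -0.06 ± 0.12, and both had overlapping groups.

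**Figure D2:**
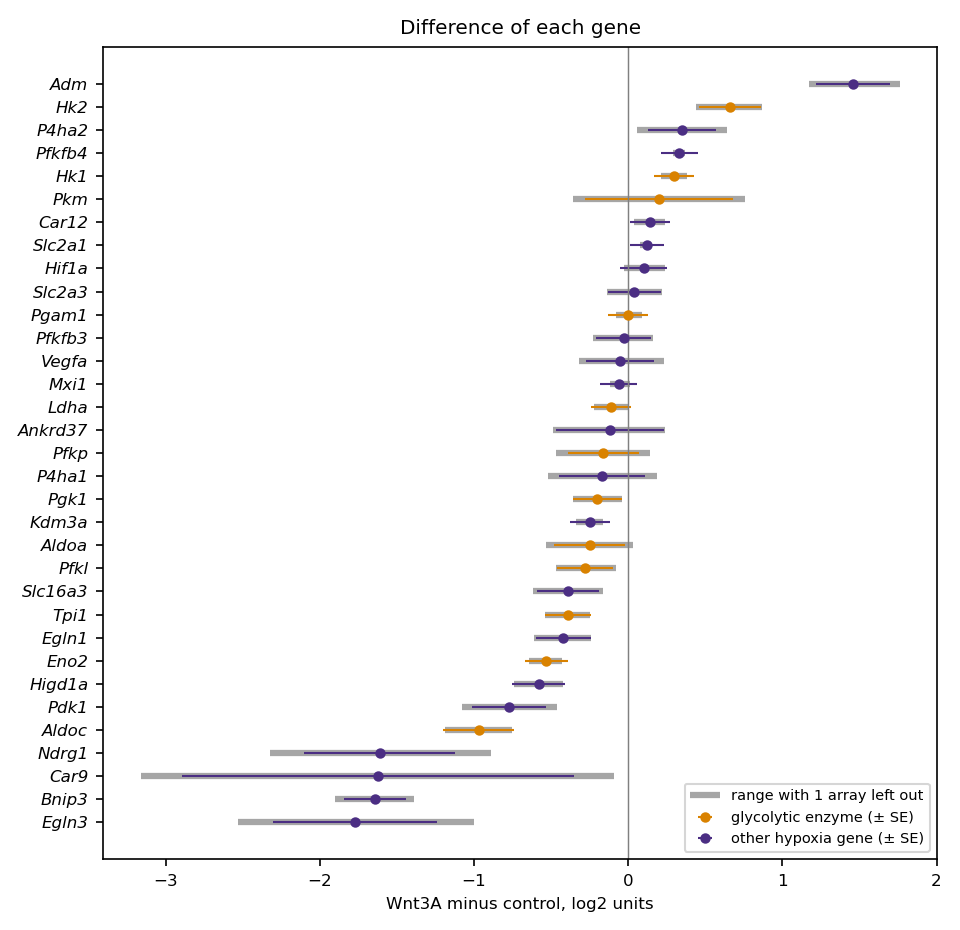
Wnt3A minus control difference of each gene in log2 units with its standard error (points and thin bars), and its range when 1 array is left out (grey bars), ordered from Adm at 1.46 to Egln3 at -1.77. The grey bars of Bnip3, Egln3, Ndrg1, Aldoc, Pdk1, Eno2 and Higd1a stay well below 0, whereas that of Car9 runs from -3.16 to -0.09.

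Set against each other, the glycolytic enzymes and the other hypoxia genes had similar medians and different spreads. The median difference was -0.18 log2 units over the 12 enzymes, with a range from -0.97 to 0.66, and -0.12 over the 21 other genes, with a range from -1.77 to 1.46. Both Wnt3A arrays lay below both controls for 4 enzymes (33.3%) and 8 other genes (38.1%), and above them for 2 of 12 enzymes and 4 of 21 other genes, where 17.5% of all genes lay below and 17% above. The counts above were thus near those of all genes. The 4 enzymes below included Pfkl, whose nearest values were 0.01 in Wnt3A 1 and 0.02 in control 2. An absolute difference of at least 0.5 was found for 3 enzymes and 7 other genes, and for 7.46% of all genes. Array medians of the enzymes were 0.01 and -0.11 in the Wnt3A arrays, against 0.35 in control 1 and -0.03 in control 2. Those of the other genes were 0.04 and -0.14 in the Wnt3A arrays, against 0.12 in control 1 and -0.02 in control 2. For the enzymes and for the other genes alike, control 1 was thus highest and control 2 lay between the Wnt3A arrays. Control 1 stood further apart for the enzymes. Without control 1 the medians of both groups were 0.01, and without control 2 they were -0.41 for the enzymes and -0.30 for the other genes. Control 1 was the highest of the 4 arrays for 19 of the 33 genes (57.6%), against 30.5% of all genes. It was also the array with the lowest basal marker median, as given above.

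Differences were also read within array numbers, although the labels do not say that a number marks a shared culture. Wnt3A was below control in both numbers for 18 of the 33 genes (54.5%) and above it in both for 9 (27.3%), against 29.7% and 29.5% of all genes. Bnip3 differed by -1.90 between the arrays numbered 1 and by -1.39 between those numbered 2. For Aldoc these values were -0.97 and -0.96, and for Adm 1.62 and 1.30. Egln3 and Ndrg1 differed more between the arrays numbered 1 (-2.39 for each) than between those numbered 2 (-1.14 and -0.83), and Hk2 more between those numbered 2 (0.98, against 0.33). Car9 differed by -2.02 and -1.23, with both numbers on the same side of 0, although its groups overlapped.

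**Figure D3:**
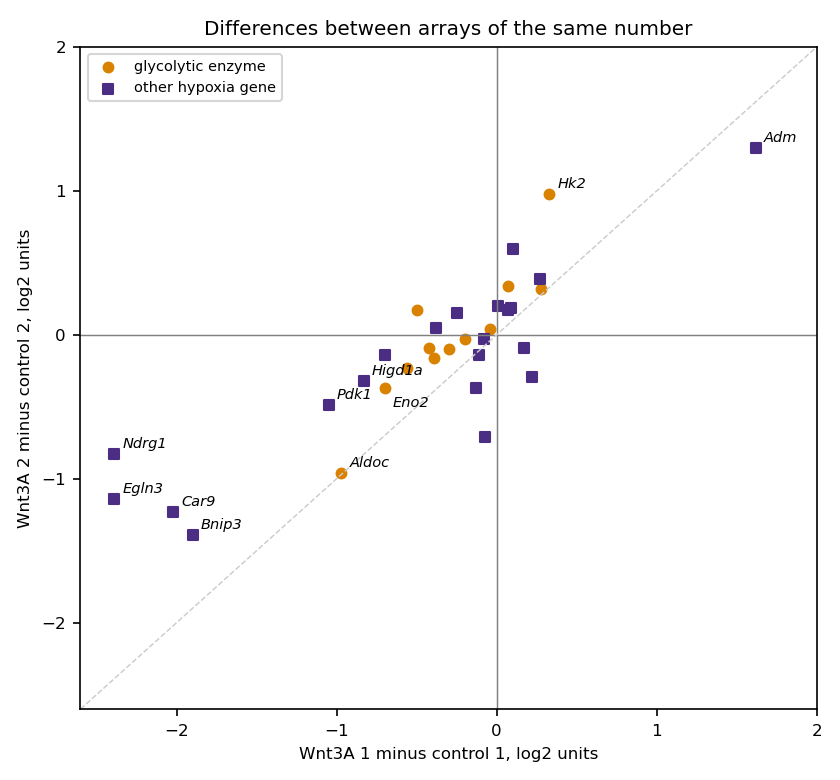
Wnt3A minus control difference in log2 units between the arrays numbered 1 (horizontal) and between those numbered 2 (vertical), 1 point a gene, with the dashed line marking equal differences. Aldoc lies on the line at -0.97 and -0.96, Adm is at the upper right, and Bnip3, Car9, Egln3 and Ndrg1 lie at the lower left, above the line.

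Probe sets of one gene gave a further view of the same arrays. Of the 21 genes with more than 1 probe set, 15 had all of them on 1 side of 0. All 5 Ndrg1 probe sets differed by -1.04 to -2, both Egln3 probe sets by -1.12 and -2.41, both Adm probe sets by 1.30 and 1.63, and both Aldoc probe sets by -0.94 and -1. Pdk1 was uneven: 3 probe sets of the upper level band differed by -0.98 to -1.31 and the fourth, in the lowest band, by 0.46, so that the mean of -0.77 lies outside the range of the other 3. Without that probe set the Pdk1 difference was -1.18. Pfkp had probe sets at -0.48, -0.40 and 0.38. Bnip3 and Car9 rest on 1 probe set each. Of the 26 probe sets of glycolytic enzymes, 8 have names that end in _x_at or _s_at, the array maker's mark for probes that may also match other transcripts, including all 5 of Aldoa, so their signal may include related genes or pseudogenes.

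**Figure D4:**
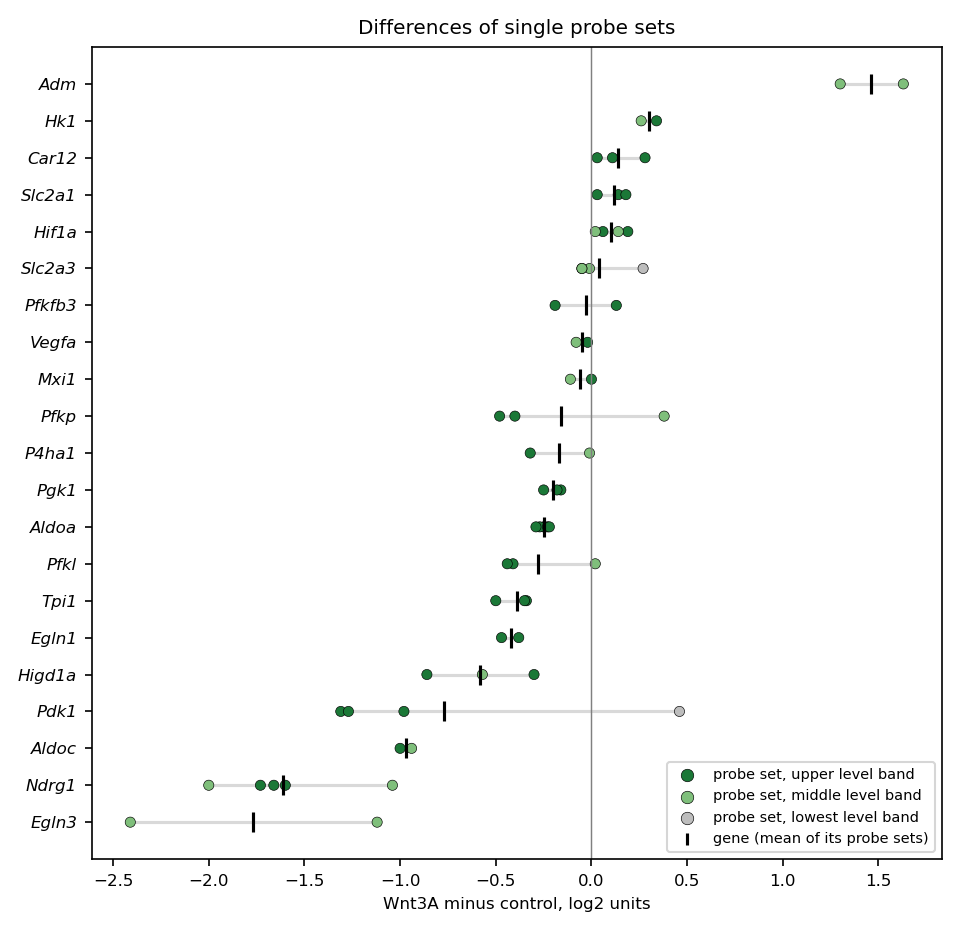
Wnt3A minus control difference in log2 units of each probe set (circles, darker green for a higher level band, grey for the lowest) and of the gene (black bar), for the 21 genes with more than 1 probe set. The probe sets of Adm lie to the right of 0, those of Ndrg1, Egln3 and Aldoc to the left, and those of Pdk1 on both sides.

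Other genes of these pathways were read from a separate list of 80 names, of which 71 were measured. This list, too, was chosen with earlier results of these data known. Their median difference was -0.04 log2 units, with 18 genes (25.4%) separated lower and 13 (18.3%) separated higher, against 17.5% and 17% of all genes, and 0 past the adjusted threshold. The higher share was near that of all genes. The 12 other HIF regulators differed by -0.36 to 0.20. Epas1, which encodes the HIF-2 alpha subunit, was at -0.11 and 0.01 with Wnt3A, against 0.62 and -0.01 in controls (-0.36 ± 0.24), Arnt, the shared HIF partner, differed by -0.14 ± 0.13 and Vhl by 0.01 ± 0.12. The largest negative difference was that of Cxcr4, a chemokine receptor gene that HIF can induce, at -0.50 and -1.73 with Wnt3A, against 1.54 and 0.50 in controls (-2.14 ± 0.55, adjusted p = 0.552). Stc2, which encodes the secreted stanniocalcin 2, differed by -0.90 ± 0.18 and Gys1, the muscle-type glycogen synthase, by -0.54 ± 0.28. The gluconeogenic bisphosphatase isoforms differed in opposite directions, with Fbp1 at -0.68 and -0.38 in the Wnt3A arrays, against 0.38 and 0.77 in controls (-1.11 ± 0.20), and Fbp2 at 0.37 and 0.26 in the Wnt3A arrays, against -1.38 and -0.26 in controls (1.14 ± 0.39). Pdk4, the pyruvate dehydrogenase kinase isoform linked to fasting, was at 1.25 and 0.24 with Wnt3A, against -1.10 and -0.24 in controls (1.42 ± 0.46), opposite in sign to Pdk1. Slc16a7, a monocarboxylate transporter, differed by -0.70 ± 0.31 and Nfil3, a transcription factor, by 0.50 ± 0.21. None of these had an adjusted p under 0.05 in limma. Of 13 genes for pyruvate entry into mitochondria and for lactate transport, 7 were separated lower and 2 higher, against 17.5% and 17% of all genes, with a median of -0.18. The 7 included Slc16a7 above, Pdha1, a pyruvate dehydrogenase subunit gene that differed by only -0.02, the pyruvate carrier gene Mpc1 (-0.48 ± 0.15) and the phosphatase gene Pdp1 (-0.40 ± 0.13), the last 3 named after their values were seen.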

How the data were processed

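RNA from 4 colony samples was hybridised to single-colour Affymetrix Mouse Genome arrays. Per the submitters' processing notes the authors used RMA, and the deposited values are on a log2 scale. The RMA version and the step that centred the values are not given in the sources used here. For all 45101 probe sets the 4 arrays had a median of 0, so levels were removed and only differences between arrays remain. Array medians were 0.020, -0.016, 0.014 and -0.016 in Wnt3A 1, Wnt3A 2, control 1 and control 2.

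Of the probe sets, 64 array controls were left out, 34945 had 1 gene symbol, 932 several and 9160 none. Probe sets with 1 symbol were averaged per gene, with no filter on low values, giving 18193 genes. All 33 measured symbols matched a RefSeq gene table. The groups were tested two-sided with lmFit and eBayes of limma 3.58.1 under R 4.3.3 (Benjamini-Hochberg over all genes, threshold 0.05, 2 residual and 2.53 prior degrees of freedom), with the spread of 4 arrays limiting precision. Standard errors and intervals are those of this fit, and the median standard error was 0.148. An exact permutation test of 2 against 2 arrays cannot give a two-sided p below 0.33. Lists are described by counts and medians, without a test. A level band (log2 of 8 to 16, 4 to 8, or below 4) was read from the spacing of stored numbers and tested on simulated data, as was the fit. A probe set of a lower band whose numbers happened to fall on the coarser spacing of a higher band was placed there. Bands can thus be too high, and the share of wrong bands is not given here. Every measured gene of the set is named. Of the wider list, those with separated arrays and an absolute difference of at least 0.5 are named, and always Epas1, Arnt, Vhl and Gapdh, a gene of the wider list that was measured through array control probe sets only. Members and lists were chosen with earlier results of these data known. Alternatives were other probe set choices, a filter on the lowest band, quantile normalization, centring of arrays, a replicate block, robust eBayes and each array left out. Motifs were matched exactly on both strands. Figures used matplotlib 3.10.9 under Python 3.11.15.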

Additional observations from a re-analysis of the deposited data

How the results depend on the processing

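No gene of the 18193 was called under any alternative. Of 198 values of single genes under alternatives that kept all arrays, 193 kept their direction. The exceptions had differences near 0: Slc2a3 was -0.04 with its highest level band alone and without the lowest band, Mxi1 was 0 with its highest band alone, and Pgam1 was 0 after quantile normalization and after centring of arrays. With an array left out, 22 of the 33 genes kept their direction each time. The others ranged from -0.08 to 0.09 (Pgam1), -0.36 to 0.76 (Pkm), -0.14 to 0.22 (Slc2a3), -0.23 to 0.16 (Pfkfb3), -0.03 to 0.24 (Hif1a), -0.32 to 0.23 (Vegfa), -0.49 to 0.24 (Ankrd37), -0.47 to 0.14 (Pfkp), -0.53 to 0.03 (Aldoa), -0.52 to 0.19 (P4ha1) and -0.12 to 0.01 (Mxi1). The median difference ranged from -0.41 to 0.01 for the glycolytic enzymes and from -0.31 to 0.01 for the other hypoxia genes, both at 0.01 without control 1, and the gap between the medians from -0.12 to 0.07, with 0.07 without Wnt3A 1. Genes of the set at an unadjusted p under 0.05 numbered 5 without Wnt3A 1, 6 without Wnt3A 2 and 12 without control 2, against 10 with all arrays, where over all 18193 genes they numbered 944, 1017 and 1357, against 1340. Separated genes numbered 21 after quantile normalization and after centring of arrays (7 higher and 14 lower), against 18 in the deposited values (6 higher and 12 lower). They numbered 22 to 29 with an array left out, with 7 to 12 higher and 12 to 22 lower. Fewer arrays overlap less often. The replicate numbers are not known to pair the samples. Deviations from the group mean had a correlation of 0.44 across 18193 genes between Wnt3A 1 and control 1, and with 2 numbers this cannot settle pairing. With the number as a block, 13 genes of the set and 2275 of all 18193 had an unadjusted p under 0.05, the medians stayed at -0.18 and -0.12, their gap at -0.06 and the separated genes at 18, and 0 genes were called.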

Other observations

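The glycolytic enzyme gene Gapdh, often used as a reference, was measured with a symbol of its own through 3 array control probe sets, which were kept out of the gene table. These differed by 0 to 0.02 log2 units between Wnt3A and control. Within each group they were higher in the array numbered 1: the probe set for the middle of the transcript was at 0.10 and -0.10 in the Wnt3A arrays, against 0.21 and -0.24 in the control arrays. The 3 measured proliferation markers had overlapping groups and a median difference of 0.01 log2 units. Mki67 was at -0.01 and 0.01 in the Wnt3A arrays, against 0.46 and -0.10 in the control arrays. Top2a was at -0.12 and 0.32 in the Wnt3A arrays, against 0.26 and -0.09 in the control arrays, and Birc5 at 0.04 and -0.04 in the Wnt3A arrays, against 0.31 and -0.46 in the control arrays. Control 1 was the highest array for Mki67 and Birc5, and Wnt3A 2 for Top2a.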
